A study of Mus musculus with 62 samples.

Results

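Quadriceps muscle of 62 male mice was measured for the RNA of 34 genes, 22 of which mark fat cells or act in fat storage and 12 of which encode or drive fatty acid and triglyceride synthesis. The genes were taken by symbol from a list of fat cell and lipogenesis genes, and all 34 were found among 55487 gene identifiers and passed the filter on low counts, which 14549 identifiers passed. Every combination of voluntary wheel running (Training or noTraining), nicotinamide riboside (NR, a form of vitamin B3 that cells turn into NAD) and pterostilbene (PT, a plant stilbenoid) was represented. Non-runners with neither agent, with NR alone, with PT alone and with both numbered 8 each, as did runners with PT alone and with both, and runners with neither agent and with NR alone numbered 7 each. NR was intravenous according to the title of the series, and strain, age, dose and length of treatment are not stated in the labels. The question taken up here is how far the levels of these genes followed the fat content of each sample, read from adipocyte markers, and how far the lipogenic genes moved apart from it.

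White adipocytes store triglyceride in a single droplet coated by the proteins Plin1 and Cidec, and secrete adiponectin (Adipoq) and leptin (Lep), so RNA of these genes in a piece of muscle marks fat cells that lie between the fibres or at the edge of the dissected tissue. De novo lipogenesis starts in the cytosol, where Acly turns citrate into acetyl-CoA, Acaca makes malonyl-CoA and Fasn builds palmitate with NADPH supplied in part by malic enzyme (Me1). Elovl5, Elovl6, Scd1 and Scd2 then lengthen and desaturate fatty acids, Dgat1 and Dgat2 close the triglyceride, and Srebf1 encodes the transcription factor SREBP-1 that drives much of the programme. Muscle fibres also carry some of these genes, among them the triglyceride lipase gene Pnpla2 and the carbonic anhydrase gene Car3.

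Libraries held 5.64 to 30.8 M counts, with a median of 16.1 M, and the RNA integrity numbers in the labels ran from 8.6 to 10. One library stood apart: runner with NR alone, replicate 1, held the fewest counts and 25.01% reads of ribosomal-RNA-like genes, 447 times the median share. This library also had the highest level of all for Plin1, Pnpla2, Adrb3, Lipe and further adipocyte genes. The range of Plin1 and the running change of Pnpla2 are given with and without it. Within each of 8 days of termination all runners were labelled with one time and all non-runners with the other, and runners were taken at noon on days 1, 3, 6 and 8. Levels are CPM (counts of a gene per M counts of its library) on library sizes scaled by TMM. Changes are log2 differences with their standard error (SE) from a model of group, day and time, and a gene was called at an edgeR adjusted p below 0.05.

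Adipoq differed far more between the animals of a group than between group medians. It ranged from 3.12 CPM in a non-runner with NR and PT (replicate 6) to 79.1 CPM in a non-runner with PT alone (replicate 1), a 25.3-fold range around a median of 30.2 CPM. Adipoq was between 3.31 and 59.5 CPM (median 34.8) in non-runners with neither agent, 8.02 and 53.2 (median 23.9) with NR, 18.6 and 79.1 (median 32.5) with PT and 3.12 and 68.2 (median 27.0) with both. In runners it was between 4.70 and 74.5 CPM (median 39.5) with neither agent, 10.3 and 66.5 (median 34.5) with NR, 20.4 and 57.3 (median 28.0) with PT and 5.51 and 60.7 (median 21.9) with both. All 8 groups overlapped, and 6 of them held at least 1 animal near or below 10 CPM beside animals above 50 CPM. In bulk tissue, fewer fat cells and less RNA per fat cell cannot be told apart.

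The other droplet and hormone genes had the same wide spread. Leptin, the satiety hormone of fat, ranged 77.3-fold (1.22 to 94.3 CPM), Cidec 22.9-fold (2.82 to 64.6 CPM) and Plin1 36.5-fold (1.97 to 71.9 CPM, and up to 53.8 CPM without the library rich in ribosomal-like reads). The coefficient of variation over the 62 animals had a median of 57.3% for the 22 adipocyte genes and 25.9% for the 12 lipogenic genes, against 15.4% for all genes tested. Variation within the adipocyte genes was itself uneven, from 18.4% for Plin4, a droplet coat protein that muscle fibres also make, to 76.5% for Lep. Among the lipogenic genes it ran from 9.52% for Me1 to 54.1% for Fasn. Per kilobase of exon, the highest median levels were those of Car3 (302 CPM per kb), Scd1 (111), Me1 (79.0) and Pnpla2 (60.1), and the lowest were those of Tshr (0.353), the thyrotropin receptor, and Elovl6 (0.260).

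**Figure D1:**
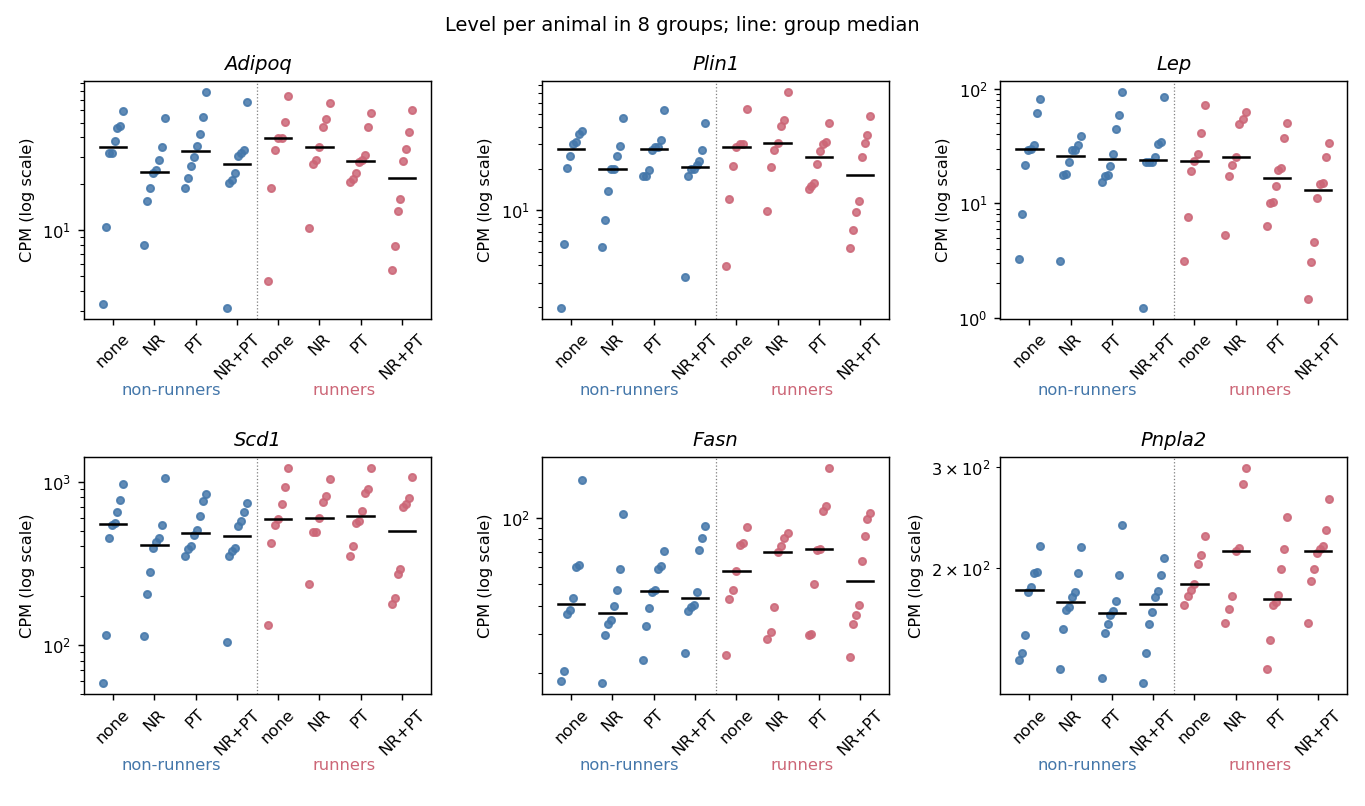
CPM on a log axis for 3 adipocyte genes, 2 lipogenic genes and Pnpla2 in each of 62 animals, by group (blue, 32 non-runners; red, 30 runners), with a line at each group median. Adipoq, Plin1 and Lep spread over more than 10-fold inside single groups, whereas Pnpla2 stays between 126 and 299 CPM in every animal.

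Leptin, Plin1 and Fasn also had group medians that lay within the ranges of the other groups. Leptin medians ran from 13.0 CPM in runners with NR and PT (1.44 to 33.6 CPM) to 29.7 CPM in non-runners with neither agent (3.23 to 82.1 CPM), and Plin1 medians from 18.0 CPM in runners with both agents to 30.5 CPM in runners with NR alone. Among lipogenic genes Fasn, Scd1 and Acaca had their lowest medians in non-runners with NR alone (37.3, 409 and 13.3 CPM) and their highest in runners with PT alone (71.9, 617 and 16.1 CPM). Fasn reached from 17.9 to 104 CPM in the first of these groups and from 29.7 to 168 CPM in the second, so the ranges overlapped.

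Sequence just upstream of 5 adipocyte and lipogenic genes is shown as background. Whether it bears on how these genes moved across animals was not tested. RefSeq windows of 250 bases before a start site (GRCm38.p6, the mm10 build) were held for 23 of the 34 genes, 30 windows in all. Letters searched, on both strands, were TTGCNNAA (a C/EBP site, bound by the adipogenic factors of the Cebpa family), CCAAT (bound by NF-Y), CACGTG (an E-box, to which SREBP-1, ChREBP and USF-type factors can bind), TCACNCCAC (a sterol regulatory element), TATAAA and the PPAR response element (AGGTCA repeated in the same direction with 1 base between). Capitals mark matches, read 5′ to 3′ on the gene's strand. Adipoq lies at chr16:23146286-23146535 on the plus strand, Plin1 at chr7:79732777-79733026 on the minus strand, Lep at chr6:29059971-29060220 on the plus strand, Fasn at chr11:120824548-120824797 on the minus strand and Elovl5 at chr9:77917115-77917364 on the plus strand.
Adipoq: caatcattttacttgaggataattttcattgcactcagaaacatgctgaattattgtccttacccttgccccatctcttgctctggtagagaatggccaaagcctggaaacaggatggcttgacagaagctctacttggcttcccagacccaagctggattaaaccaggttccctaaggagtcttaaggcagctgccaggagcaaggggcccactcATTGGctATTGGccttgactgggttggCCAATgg
Plin1: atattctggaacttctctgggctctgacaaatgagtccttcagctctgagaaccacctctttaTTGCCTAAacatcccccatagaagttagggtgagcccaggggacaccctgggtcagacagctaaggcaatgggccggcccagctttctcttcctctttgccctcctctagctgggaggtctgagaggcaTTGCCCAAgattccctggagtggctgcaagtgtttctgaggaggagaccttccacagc
Lep: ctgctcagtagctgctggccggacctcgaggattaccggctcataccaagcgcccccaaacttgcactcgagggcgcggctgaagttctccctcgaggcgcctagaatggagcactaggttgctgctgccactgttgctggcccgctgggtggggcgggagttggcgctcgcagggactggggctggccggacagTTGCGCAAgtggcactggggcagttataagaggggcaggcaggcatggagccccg
Fasn: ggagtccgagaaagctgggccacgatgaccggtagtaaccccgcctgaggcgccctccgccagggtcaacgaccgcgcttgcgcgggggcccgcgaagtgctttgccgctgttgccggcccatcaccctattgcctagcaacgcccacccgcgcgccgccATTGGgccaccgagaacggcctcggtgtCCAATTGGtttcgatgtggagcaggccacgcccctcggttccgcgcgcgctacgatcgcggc
Elovl5: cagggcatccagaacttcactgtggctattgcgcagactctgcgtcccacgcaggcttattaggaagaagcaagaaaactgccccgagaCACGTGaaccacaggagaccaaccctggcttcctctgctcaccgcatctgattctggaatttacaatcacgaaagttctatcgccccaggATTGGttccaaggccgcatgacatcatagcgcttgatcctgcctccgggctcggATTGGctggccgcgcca
Adipoq holds 3 CCAAT matches, all within 34 bases of the start. Plin1 holds 2 C/EBP matches, at 187 and 58 bases before the start, and Lep 1, at 55 bases before it. Fasn holds 3 CCAAT matches, 2 of which overlap, and Elovl5 an E-box and 2 CCAAT matches.

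C/EBP letters stood in 5 of 19 windows of adipocyte genes (26.3%), those of Cidec, Klhdc7a, Lep, Plin1 and Pparg, and in 0 of 11 windows of lipogenic genes, against 9.56% of all 32851 windows. CCAAT stood in 6 of 11 lipogenic windows (54.5%), those of Elovl5, Fasn, Me1, Srebf1 and Thrsp, and in 4 of 19 adipocyte windows (21.1%), those of Adipoq, Plin4 and Pparg, against 33.8% of all windows. The E-box letters were in 1 window of Lipe and 1 of Elovl5 (6.02% of all windows) and TATAAA in those of Cebpa and Pparg (12.4%). The PPAR repeat and the sterol element were in none of the 30 windows, and in 0.0335% and 1.05% of all windows. These are matches of letters and no measure of binding. Pparg and Srebf1 have 3 windows each, from separate start sites.

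Fat content was read from Adipoq, and 28 of the other 33 genes rose with it across animals, 19 of 21 adipocyte genes and 9 of 12 lipogenic genes, with none falling. Of all 14548 other genes tested 7.62% were called in this comparison, 5.7% rising and 1.92% falling, and the median slope was 0.88 over the adipocyte genes, 0.17 over the lipogenic genes and 0.00 over all genes. The slope is the log2 change of a gene per doubling of Adipoq, fitted with group, day and time. Several droplet and hormone genes rose about in step with Adipoq. Plin1 had a slope of 0.98 ± 0.04 (SE), Cidec 0.96 ± 0.03, Hp (haptoglobin) 1.06 ± 0.06 and Lep 1.16 ± 0.06. The edgeR adjusted p was at or below 6.09e-21 for Plin1, Cidec and Lep and 3.51e-19 for Hp. Retn and Cfd rose somewhat less, with slopes of 0.85 to 0.90 and 0.76 to 0.80 over the 8 fits that each left out 1 day. The membrane proteins Slc7a10, an amino acid transporter, and Tmem45b had slopes of 1.00 ± 0.06 and 1.09 ± 0.05, and Pck1, which feeds glycerol synthesis in fat, 0.94 ± 0.08. Because RNA of all genes is read from the same library, these slopes describe how levels moved together and not what moved first.

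A second set of adipocyte genes rose with Adipoq but less than in step. Pparg, the nuclear receptor that makes a fat cell, had a slope of 0.42 ± 0.05, Cebpa 0.58 ± 0.04, the hormone-sensitive lipase gene Lipe 0.35 ± 0.02 and the fatty acid carrier gene Fabp4 0.25 ± 0.02. Car3 (0.19 ± 0.05) and Plin4 (0.15 ± 0.02) had the lowest called slopes of the adipocyte genes. With single days left out Car3 was called in 5 of 8 fits (highest edgeR adjusted p = 0.0877) and had none in cohort 1 alone, cohort 2 alone or with the replicate block (edgeR adjusted p = 0.779, 0.266 and 0.0768). Pnpla2, which encodes the first triglyceride lipase, had a slope of -0.04 ± 0.03 and Cidea, a droplet protein abundant in brown fat, -0.22 ± 0.12, and neither passed the test (edgeR adjusted p = 0.446 and 0.279). Cidea was at a median of 0.427 CPM and at 0 in 2 libraries, and Ucp1, the defining gene of brown fat, had a median of 0 CPM. Reads of Adrb3 (slope 0.83 ± 0.08), Lipe and Slc7a10 are uncertain, since their exons share 839, 918 and 377 bases with genes on the other strand.

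**Figure D2:**
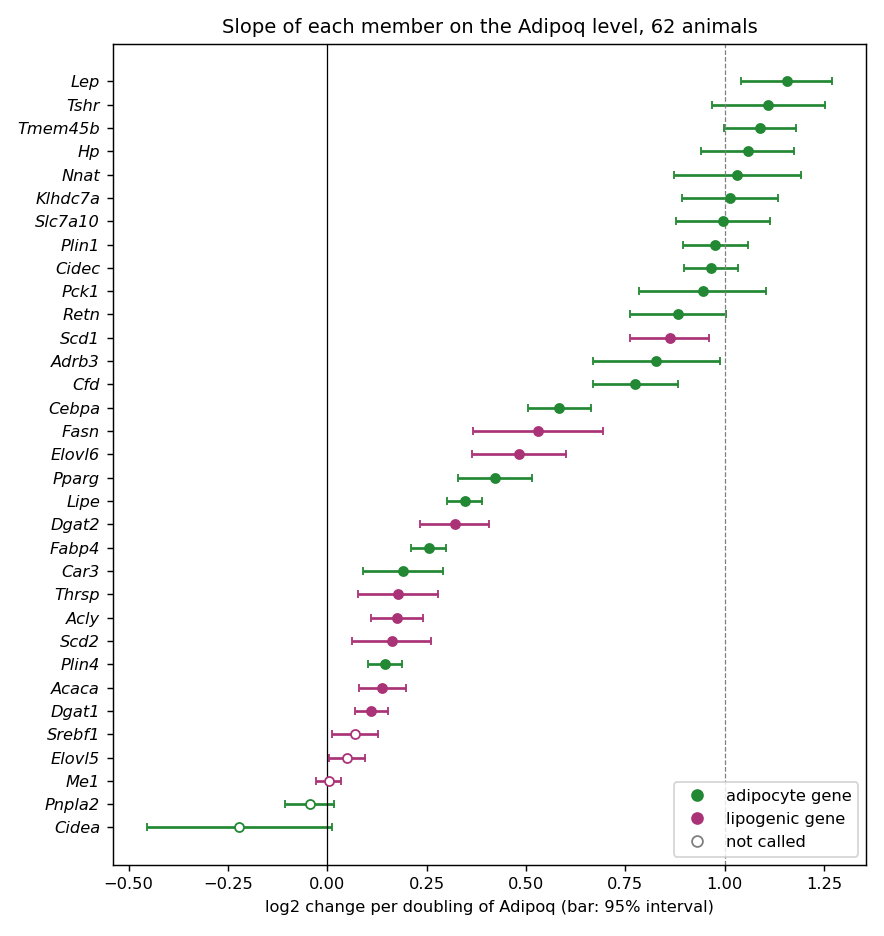
Log2 change of each of 33 genes per doubling of Adipoq, fitted over 62 animals with group, day and time; bars are 95% intervals, green points adipocyte and purple points lipogenic genes, and open points genes that did not pass the test. The dashed line marks a gene that doubles with Adipoq; 10 adipocyte genes lie between 0.94 and 1.16, and among lipogenic genes Scd1 comes nearest at 0.86.

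The lipogenic genes had graded slopes on Adipoq, and 9 of 12 were called. Scd1, which makes oleate from stearate, had a slope of 0.86 ± 0.05 (SE; edgeR adjusted p = 1.58e-18), Fasn 0.53 ± 0.08, Elovl6 0.48 ± 0.06 and Dgat2 0.32 ± 0.04. Acly (0.18 ± 0.03), Thrsp (0.18 ± 0.05), a regulator of lipogenic enzymes, Scd2 (0.16 ± 0.05), Acaca (0.14 ± 0.03) and Dgat1 (0.11 ± 0.02) rose by small amounts. Me1 had a slope of 0.00 ± 0.02, with an interval of -0.03 to 0.03, and it did not pass, nor did Elovl5 (0.05 ± 0.02) and Srebf1 (0.07 ± 0.03; edgeR adjusted p = 0.937, 0.21 and 0.14 for Me1, Elovl5 and Srebf1). Scd1 and Scd2 are related gene copies, and how their reads were divided is not stated. Scd2 kept its call in 3 and Thrsp in 5 of 8 fits that each left out 1 day.

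On the linear scale a straight line through the 62 animals had an intercept of -0.75 ± 1.15 CPM (SE) for Cidec and 2.21 ± 1.54 CPM for Plin1, read as the level at 0 CPM of Adipoq, the latter 9.41% of the line's level at the median Adipoq. For Scd1 the intercept was 167 ± 47.7 CPM, 31.6% of the level at the median. For Fasn it was 35.1 ± 7.60 CPM or 62.9%, for Dgat2 58.6%, for Lipe 52.7%, for Fabp4 65.8% and for Car3 77.4%. Acaca, Acly, Scd2, Elovl5, Thrsp and Srebf1 lay between 87.0 and 93.0%, and Me1 at 101%, so on this scale genes called for the slope (Acaca, Acly, Scd2 and Thrsp) were not set apart from genes not called (Elovl5 and Srebf1). The line is extended below the lowest animal, at 3.12 CPM of Adipoq, and was chosen after the values were seen.

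Across the 62 animals Cidec had a Pearson r of 0.97 with Adipoq on log2 CPM and a Spearman rho, on ranks, of 0.94. The permutation p was 1e-05 for each, the smallest that 100000 resamples can give (adjusted p = 0.000589 and 0.00058 over all genes). The r was 0.97 in each cohort of 31 animals and 0.96 without the 2 animals farthest from the Adipoq median. Scd1 had an r of 0.89 and a rho of 0.80 (permutation p = 1e-05, adjusted p = 0.000589 and 0.00058), with r of 0.92 and 0.87 in the cohorts and 0.85 without those 2 animals. Fasn had an r of 0.59 (permutation p = 1e-05, adjusted p = 0.000589) and a rho of 0.52 (permutation p = 4e-05, adjusted p = 0.00193). Its r was 0.64 in cohort 1, 0.55 in cohort 2, where it did not pass (permutation p = 0.00103, adjusted p = 0.0557), and 0.53 without those animals. Me1 had an r of 0.01 (permutation p = 0.947, adjusted p = 0.984). Of the 33 genes 26 passed the permutation test of r, all positive, against 5.35% of all genes. On deviations from group, day and time means 28 passed, all positive, against 14.2% of all genes. That permutation treats the deviations as 62 free values, though the fit left 46 residual degrees of freedom, so its p-values come out too small.

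**Figure D3:**
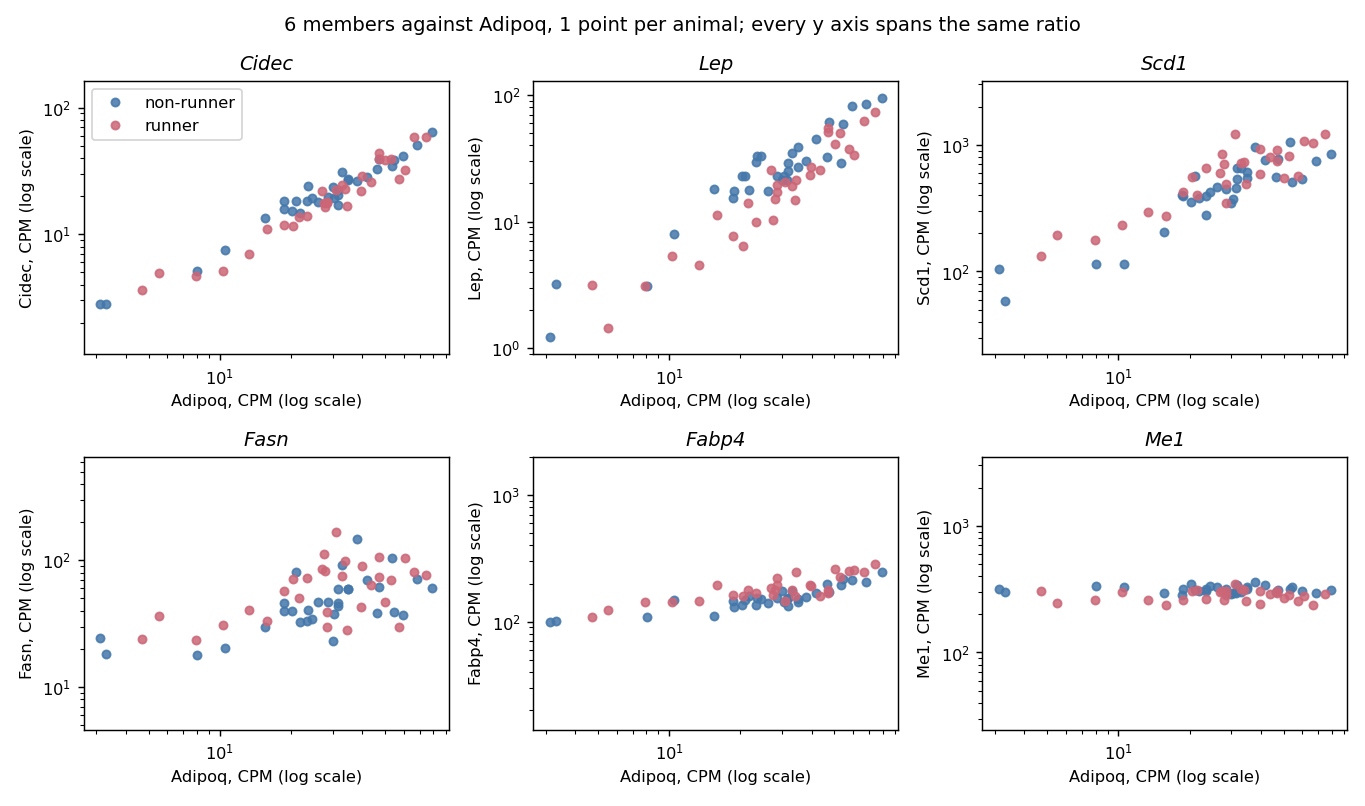
Levels of 6 genes against Adipoq, both on log axes in CPM, 1 point per animal (blue, non-runners; red, runners); each vertical axis spans the same ratio. Cidec and Lep climb with Adipoq over the whole range, Scd1 less so, Fasn with wide scatter, Fabp4 from a floor near 100 CPM, and Me1 lies level between 237 and 361 CPM.

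Running called 7 of the 34 genes, 6 up and 1 down, which is 4 of 12 lipogenic and 3 of 22 adipocyte genes. Of all 14549 genes tested 14% were called for running, 8.41% up and 5.58% down. The median log2 change was 0.19 over the lipogenic genes and 0.10 over the adipocyte genes, against 0.01 over all genes. Adipoq itself had a log2 change of 0.01 ± 0.23 (SE), with an interval of -0.45 to 0.47 (edgeR adjusted p = 0.99), and a summed level of 6 adipocyte markers (Adipoq, Plin1, Cidec, Lep, Retn and Cfd) lay between 25.9 and 340 CPM in runners (median 147) and 15.2 and 370 CPM in non-runners (median 135).

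Me1, malic enzyme, was the called gene that fell. It lay between 237 and 350 CPM in 30 runners (median 287) and 283 and 361 CPM in 32 non-runners (median 315). The ranges overlapped, yet the runner was lower in 25 of 30 pairs of the same day and agents, and the runners' mean was lower on all 8 days. The log2 change was -0.15 ± 0.03 (SE; edgeR adjusted p = 0.000184), and the call was kept in all 8 fits that left out a day. In cohort 1 alone it was -0.15 (edgeR adjusted p = 0.0337) and in cohort 2 alone -0.16 (edgeR adjusted p = 0.0934). The gene spans 86581371 to 86695953 on chromosome 9 of mm10.

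Among genes of fatty acid synthesis, the enzyme genes Acly and Elovl5 and the regulator gene Thrsp rose with running. Elovl5, which lengthens polyunsaturated fatty acids, was at 10.8 to 17.2 CPM in runners (median 14.2) and 9.44 to 16.3 CPM in non-runners (median 12.03), a log2 change of 0.20 ± 0.04 (edgeR adjusted p = 0.00144). Acly was at 16.3 to 47.0 CPM (median 27.4) against 15.1 to 40.6 CPM (median 22.6), a change of 0.23 ± 0.08 (edgeR adjusted p = 0.0357), and it was higher in the runner in 25 of 30 pairs. Thrsp was at 6.98 to 24.0 CPM (median 14.4) against 6.57 to 20.1 CPM (median 10.6), a change of 0.35 ± 0.10 (edgeR adjusted p = 0.0143) and higher in 23 of 30 pairs. Elovl5 kept its call in all 8 fits that left out a day. Thrsp had none without day 1 or day 3 (highest edgeR adjusted p = 0.11), and its change was 0.54 in cohort 1 and 0.17 in cohort 2. On counts summed per session, the unit that all runners of a day share, Thrsp had no call (0.37, edgeR adjusted p = 0.0532). Acly had none without day 1, 2, 3, 5 or 8 (highest edgeR adjusted p = 0.154), nor with RNA integrity added (edgeR adjusted p = 0.0571) or without a filter on low counts (edgeR adjusted p = 0.105). Without day 1 the calls were 3, Elovl5, Me1 and Srebf1.

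The remaining lipogenic genes had changes that did not pass. Fasn was at 23.5 to 168 CPM in runners (median 66.9) and 17.9 to 148 CPM in non-runners (median 41.9), a log2 change of 0.34 ± 0.20 with an interval of -0.05 to 0.73 (edgeR adjusted p = 0.261). Scd1 was at 133 to 1218 CPM against 58.0 to 1054 CPM, a change of 0.32 ± 0.23 (edgeR adjusted p = 0.381). Srebf1, the regulator, had -0.14 ± 0.06 (edgeR adjusted p = 0.077), Acaca 0.14 ± 0.06, Dgat1 0.09 ± 0.05, Dgat2 0.18 ± 0.11, Elovl6 0.25 ± 0.15 and Scd2 0.10 ± 0.10. Srebf1 had a call in DESeq2 and on counts summed per session. The mean of Elovl6 was above that of non-runners on 8 of 8 days, in a gene with a median of 1.67 CPM.

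Of the 22 adipocyte genes 3 rose with running, Pnpla2, Fabp4 and Cidea, and 19 did not pass. That share is near the 14% of all genes called. Pnpla2 and Cidea were also the adipocyte genes not called for the Adipoq level, and Fabp4 rose less than in step with it. Pnpla2 was at 134 to 299 CPM in runners (median 199) and 126 to 238 CPM in non-runners (median 173), a log2 change of 0.21 ± 0.06 (SE; edgeR adjusted p = 0.0107). The highest runner, at 299 CPM, was the library rich in ribosomal-like reads, and without that library the change was 0.18 (edgeR adjusted p = 0.0229). Without day 1 Pnpla2 had no call (edgeR adjusted p = 0.0579). Fabp4 was at 110 to 283 CPM (median 177) against 98.5 to 246 CPM (median 151), a change of 0.25 ± 0.08 (edgeR adjusted p = 0.0248). It kept its call without day 6 or day 7 but in none of the other 6 such fits (highest edgeR adjusted p = 0.102), nor without a filter on low counts (edgeR adjusted p = 0.0685), and its change was 0.38 in cohort 1 and 0.12 in cohort 2. Cidea was at 0.162 to 1.05 CPM (median 0.522) against 0 to 0.892 CPM (median 0.339), a change of 0.70 ± 0.22 (edgeR adjusted p = 0.0228) and higher in the runners' mean on 8 of 8 days. At a few reads per library it had no call without day 1, 4, 5 or 6 (highest edgeR adjusted p = 0.108), and DESeq2 gave no adjusted p for it.

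Markers of other cell types were read beside these calls, where 8.41% of all genes rose with running and 5.58% fell. All 5 endothelial markers (Pecam1, Cdh5, Tie1, Kdr and Cldn5) rose with running, by 0.25 to 0.37, with a summed level of 185 to 386 CPM in runners (median 268) and 176 to 258 CPM in non-runners (median 218). Fabp4 is also made by capillary endothelium, and the part of endothelial RNA in its change was not tested. Among 7 fibroblast and preadipocyte markers Lum rose (summed level 602 to 1422 CPM in runners and 529 to 1565 CPM in non-runners), and among 5 macrophage markers Cd68 rose (67.7 to 165 against 50.9 to 159 CPM). Of 4 Schwann cell markers 1 fell with running and 0 rose. Of 5 skeletal muscle markers 1 rose and 0 fell, and their median log2 change was -0.08. The marker that rose was Myh1, a fast myosin heavy chain, by 0.67 ± 0.14 SE (edgeR adjusted p = 0.000741). The fibroblast, macrophage, Schwann cell and skeletal muscle lists had 1 call each, too few to set apart from the share of all genes. The part of fibre type in the changes of genes that fibres make was not tested. With the Adipoq level 0 of 5 endothelial, 3 of 7 fibroblast (Dpt, Pdgfra and Cd34) and 1 of 5 macrophage markers (Csf1r) rose. Of all genes 5.7% rose with it and 1.92% fell. Cox8b, listed as a brown fat marker and at a median of 225 CPM here, fell by 0.09 with the Adipoq level. Krt14, a marker of skin, had a median of 0 CPM, and the muscle genes Myh4, Acta1 and Ckm had medians of 60297, 27764 and 15462 CPM.

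**Figure D4:**
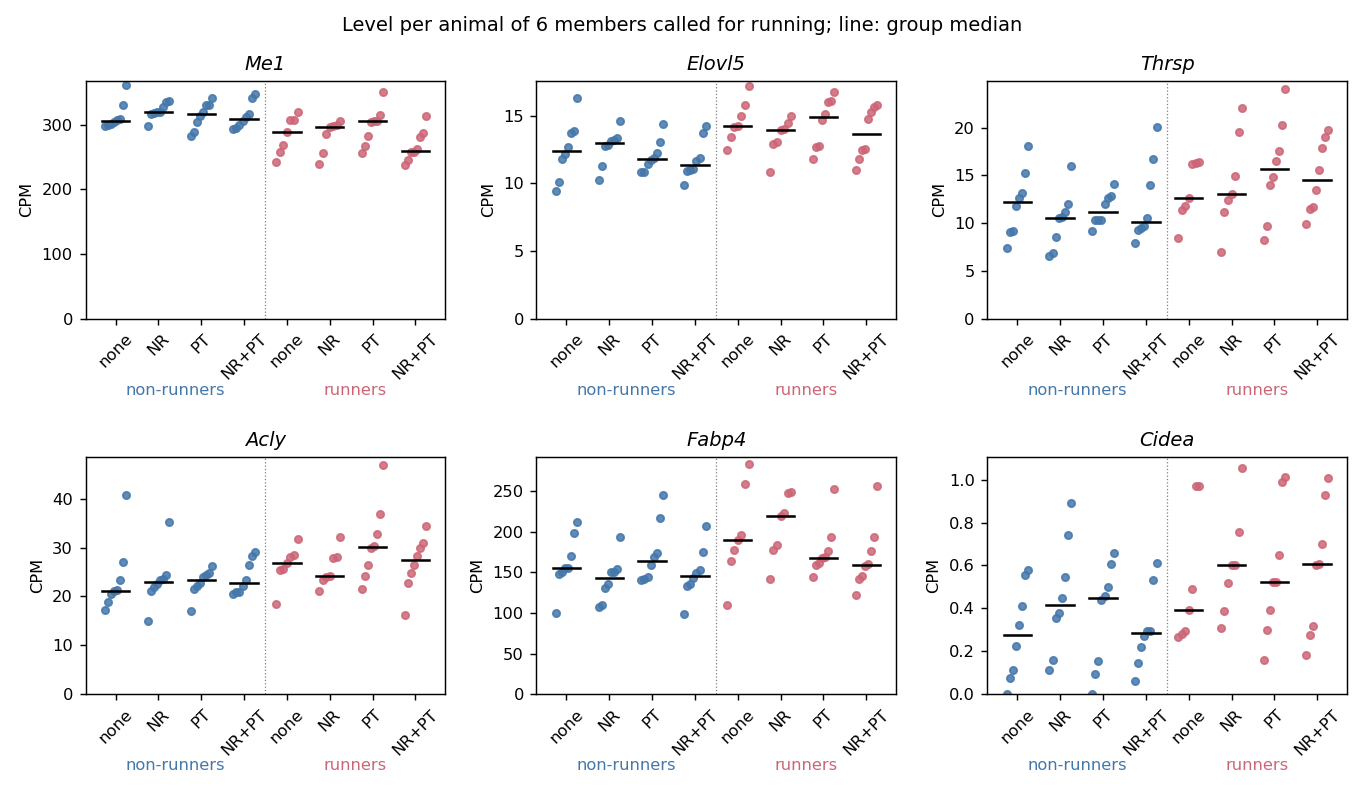
CPM on linear axes from 0 for 6 of the 7 genes called for running, 1 point per animal by group, with a line at each group median. Runners (red) and non-runners (blue) overlap in every panel; Me1 is lower in runners and the other 5 genes are higher.

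With the Adipoq level held in the model, running called 13 of 33 genes, 9 up and 4 down, against 15.3% of all 14548 genes, 9.39% up and 5.88% down. Leptin fell by 0.59 on the log2 scale (SE 0.09; edgeR adjusted p = 2.25e-05), where without Adipoq its change was -0.51 ± 0.28 (edgeR adjusted p = 0.224). Lep was at 1.44 to 73.1 CPM in runners (median 19.2) and 1.22 to 94.3 CPM in non-runners (median 26.1), ranges that overlap almost fully, and the difference lies in its level relative to Adipoq. Hp (-0.33 ± 0.10; edgeR adjusted p = 0.0165) and Cidec (-0.18 ± 0.06; edgeR adjusted p = 0.027) were also lower. Lep kept this call in all 8 fits without a day, and had -0.55 in cohort 1 (edgeR adjusted p = 0.0689) and -0.65 in cohort 2 (edgeR adjusted p = 0.0139). With Plin1 in place of Adipoq it had -0.67 (edgeR adjusted p = 4.35e-05). Hp kept its call in 5 and Cidec in 3 of the 8 fits.

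At a given Adipoq level Scd1, Cfd and Adrb3 were higher in runners. Scd1 had a log2 change of 0.35 ± 0.08 (SE; edgeR adjusted p = 0.0037), Cfd, which encodes the complement factor adipsin, 0.37 ± 0.09 (edgeR adjusted p = 0.00439), and Adrb3, the adrenergic receptor of fat cells, 0.56 ± 0.13 (edgeR adjusted p = 0.00238). All 3 kept the call in each of the 8 fits without a day. Scd1 had 0.35 in cohort 1 (edgeR adjusted p = 0.0626) and 0.33 in cohort 2 (edgeR adjusted p = 0.252). The 7 genes called for running without Adipoq were called here too, with changes of 0.24 for Fabp4, 0.21 for Pnpla2, 0.74 for Cidea, 0.21 for Acly, 0.19 for Elovl5, 0.34 for Thrsp and -0.15 for Me1. Fasn had 0.35 ± 0.15 (edgeR adjusted p = 0.099). In cohort 1 alone 5 genes and in cohort 2 alone 1 gene, Lep, passed with Adipoq held.

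**Figure D5:**
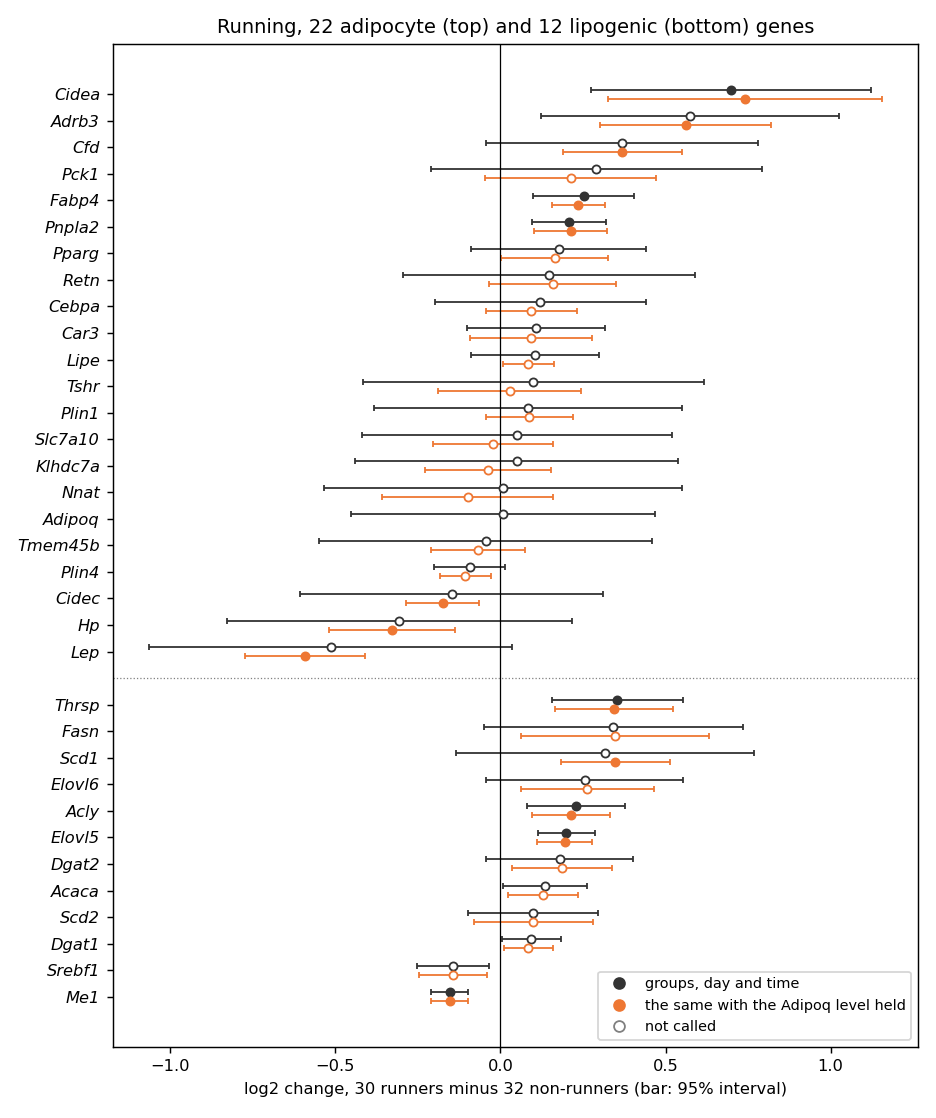
Log2 change in 30 runners against 32 non-runners for 22 adipocyte genes (above the dotted line) and 12 lipogenic genes (below), with bars of 95% intervals; black from the model of group, day and time, orange with the Adipoq level added, open points not called. The bars of Lep, Scd1, Cfd and most adipocyte genes shorten with Adipoq held, whereas those of Me1, Elovl5 and Pnpla2 hardly change.

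Within the 4 supplement arms 1 gene passed. Me1 in runners with NR and PT was at 237 to 314 CPM (median 259) against 293 to 347 CPM (median 308) in non-runners with both, a log2 change of -0.23 (edgeR adjusted p = 0.0257), where 1.7% of all genes were called. It kept this call in 4 of 8 fits that left out a day. In the other arms Me1 medians were 289 against 306 CPM with neither agent, 297 against 319 CPM with NR alone and 305 against 316 CPM with PT alone. Called shares of all genes in edgeR there were 0 with neither agent (990 at an unadjusted p under 0.05), 0.447% with NR alone and 0.00687% with PT alone.

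NR, PT and the interactions called none of the 34 genes. For NR 0.0206% of all genes were called, and the members' log2 changes ran from -0.42 to 0.14, with 0 at an unadjusted p under 0.05. Of the 34 members 30 lay below 0, where the median over all genes was -0.0004. Most members moved together with Adipoq, so these signs are not separate observations. For PT 0 genes were called in edgeR among all genes (580 at an unadjusted p under 0.05), and the members ran from -0.32 to 0.24 with 1 at an unadjusted p under 0.05. DESeq2 also called 0 members for NR and 0 for PT. Running by NR, running by PT, NR by PT and the 3-way interaction called 0 genes each in edgeR among all genes (525, 511, 327 and 403 at an unadjusted p under 0.05), and 0, 2, 0 and 0 members had an unadjusted p under 0.05. DESeq2 called 6 genes for these interactions, none of them a member. With Adipoq held NR and PT each called 0 of 33, against 0.0206% and 0 of all genes, and 5 members had an unadjusted p under 0.05 in each. For NR 22 of these 33 then lay above 0 and 11 below.

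Time, cohort and body weight change called no member either. Noon against morning gave 0 called genes in edgeR (768 at an unadjusted p under 0.05), and 0 members had an unadjusted p under 0.05. Over all genes this depended on the days used: 145 were called without day 2 and 206 without day 3, with 0 members in each. Cohort 2 against cohort 1 called 0.131% of all genes, and its lowest edgeR adjusted p among the members was 0.308. Cohorts are separate days, and on counts summed per day, or with RNA integrity added, none of these calls remained (1327 genes had an unadjusted p under 0.05 in edgeR before either change). Body weight change, labelled from -5.2 to 6.3 with no unit, called 0 genes in edgeR (998 at an unadjusted p under 0.05). The slopes of 32 of 34 members on it were above 0, with a median of 0.08 log2 per unit against 0.001 over all genes. Hp at 0.26 ± 0.09 and Lep at 0.24 ± 0.09 led (SE, with edgeR adjusted p = 0.698 and 0.699), and DESeq2 called 0 members. Most members moved together with Adipoq, so these slopes are not separate observations.

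Of 30 further adipocyte and droplet genes 7 rose with running and 0 fell, where 8.41% of all genes rose and 5.58% fell, among them Fabp5, a fatty acid carrier, at 0.37 ± 0.07 (SE), Aqp7, the glycerol channel of fat, at 0.36 ± 0.09, and Gpihbp1 and Cav1, which capillary endothelium also makes, at 0.29 ± 0.06 and 0.20 ± 0.04. Their median log2 change was 0.09. Of 30 further lipogenic genes tested 3 rose and 1 fell, a share near the 14% of all genes called, with a median of 0.05. Aacs and Acss2, cytosolic enzymes that activate acetoacetate and acetate, rose by 0.47 ± 0.09 and 0.23 ± 0.05, Idh1, a source of NADPH, rose by 0.19 ± 0.05, and Agpat1, an acyltransferase of triglyceride synthesis, fell by 0.10 on the log2 scale.

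With the Adipoq level 14 of the 30 further adipocyte and droplet genes and 11 of the 30 further lipogenic genes rose, and 0 of either fell, where 5.7% of all genes rose and 1.92% fell. Sncg, the lipid droplet lectin gene Lgals12, the activin receptor gene Acvr1c and the acute-phase gene Orm1 had slopes of 0.65 ± 0.03, 0.93 ± 0.06, 0.88 ± 0.07 and 1.05 ± 0.09 (SE). In the lipogenic list the citrate carrier gene Slc25a1 had 0.48 ± 0.05, Hacd2, of the elongation cycle, 0.37 ± 0.04, Tkt 0.23 ± 0.03 and G6pdx 0.29 ± 0.04, the last being the entry enzyme of the NADPH-making pentose pathway. The median slope was 0.04 in the first list and 0.07 in the second.

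Among genes that are not members, those most tied to Adipoq were Aoc3, with a slope of 0.72 ± 0.03 (SE), Trarg1 (0.81 ± 0.04), Sncg, Prkar2b (0.80 ± 0.04), Glb1l2 (0.57 ± 0.03) and Aldh1a7 (0.96 ± 0.05), taken from genes averaging 1 CPM or more. Aoc3 is an amine oxidase and Trarg1 a glucose transporter regulator of fat cells. On the negative side stood Apol10b at -0.30 ± 0.05, Gbp6 at -0.29 ± 0.06, Wars at -0.10 ± 0.02 and Iigp1 at -0.46 ± 0.09, of which Gbp6 and Iigp1 are interferon-induced GTPases. Each of these 4 was highest in the same animal, a non-runner with neither agent (replicate 3), whose Adipoq was 3.31 CPM, the second lowest. Iigp1 was at 89.5 CPM there against a median of 8.94 CPM. Without that animal and the animal of lowest Adipoq the slopes were -0.21, -0.25, -0.05 and -0.44, and Wars had no call (edgeR adjusted p = 0.103).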

How the data were processed

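RNA of quadriceps muscle from 62 mice was sequenced as 52-base read pairs of stranded poly-A libraries, per the labels' protocols. The authors deposited 1 table of raw counts per gene. It was made with STAR 2.7.3a and featureCounts 2.0.0 on the mm10 build, per the submitters' processing notes. Neither the annotation used for counting nor its strandedness is given in the sources read, so reads of genes with exons on opposite strands may be mixed. GENCODE M21 symbols matched 99.8% of the 55487 identifiers.

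Counts were fitted in edgeR 4.0.16 (R 4.3.3; quasi-likelihood test, TMM scaling, genes with at least 10 counts in enough libraries and 15 in all), with 8 groups, 8 days and time of day, which left 46 residual degrees of freedom. Running, NR and PT were averaged over the other factors. Slopes on Adipoq used log2 CPM of the same library with a pseudocount of 0.5, which puts counting noise of Adipoq into the slope. P-values were adjusted by Benjamini-Hochberg over all genes tested, at a threshold of 0.05. Correlations used 100000 permutations (Python 3.11.15, numpy 2.4.6) and were adjusted over all genes in place of the members alone, a departure from the written design. The depth of 5.64 to 30.8 M counts leaves genes near 1 CPM, such as Cidea, at a few reads per library. Scripts were tested on simulated data.

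Members and lists were chosen with earlier results of these data known, so their counts are descriptions. Genes named outside the members were up to 4 called genes of smallest p per list and comparison, and 6 positive and 4 negative slopes of smallest p on Adipoq among genes of at least 1 CPM. The straight-line fit, the summed level of 8 ribosomal-RNA-like genes and the alternatives that leave out libraries rich in them, split the Adipoq fits by cohort or vary the fit with Adipoq held were chosen after seeing the data. Alternatives were RLE scaling, no filter, DESeq2 1.42.0, other covariates, single cohorts, days left out in turn and counts summed per session. Replicate numbers of the titles did not follow the day labels and were not used to pair animals. Over 211 same-numbered pairs the median correlation of deviations from group means was 0.01, and 28 pairs were over 0.1. Of 1470 differently numbered pairs 173 were over 0.1. Pairs of the same day, which share a label, also had a median of 0.01, so this measure cannot show whether animals were paired.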

Additional observations from a re-analysis of the deposited data

Results flagged for a closer look

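Within the 8 groups of 7 or 8 animals, 29 values of 22 genes stood far from the rest of their group, measured by the gap to the nearest animal over the group's range. There were 272 sets of values. The cutoffs mark about 1 in 20 sets of normally distributed values. Here they were applied to CPM without a log, and genes that moved together marked the same animals. The number of marked values was therefore not compared with a number expected by chance. The 29 values came from 11 animals.

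Non-runner with NR alone, replicate 6, had 8 of these values, each the highest of its group. Its lipogenic levels were 1054 CPM for Scd1, 101 CPM for Scd2, 35.3 CPM for Acly, 19.0 CPM for Acaca and 4.18 CPM for Elovl6. Its adipocyte levels were 64.4 CPM for Cfd, 18.3 CPM for Tmem45b and 3.07 CPM for Adrb3. Non-runner with PT alone, replicate 1, which had the highest Adipoq of all animals, had 7, each the highest of its group: Hp at 88.2 CPM, Plin1 at 52.8 CPM, Cebpa at 19.8 CPM, Retn at 18.4 CPM, Pparg at 10.997 CPM, Slc7a10 at 7.51 CPM and, among lipogenic genes, Dgat2 at 96.5 CPM. Non-runner with NR and PT, replicate 7, had 4, each the highest of its group, with Adipoq at 68.2 CPM, Lep at 85.2 CPM, Hp at 77.7 CPM and Slc7a10 at 5.49 CPM.

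The other animals had 1 or 2 such values each. Non-runner with neither agent, replicate 4, had Fasn at 148 CPM and Acly at 40.6 CPM, and runner with PT alone, replicate 5, had Fabp4 at 253 CPM and Pck1 at 44.9 CPM. Acaca was at 27.6 CPM in runner with PT alone, replicate 7, and Klhdc7a at 16.0 CPM in runner with NR alone, replicate 1, the library rich in ribosomal-like reads. Elovl6 was at 2.47 CPM in runner with NR alone, replicate 6, Pparg at 10.6 CPM in runner with neither agent, replicate 3, and Dgat1 at 14.1 CPM in runner with NR and PT, replicate 5. The lowest value of its group was marked for Scd2, at 38.3 CPM in non-runner with PT alone, replicate 3.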

How the results depend on the processing

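Running called 7 members, and 3 to 8 when single days were left out, 4 in cohort 1 alone, 0 in cohort 2 alone and 13 with the Adipoq level added. Over all genes cohort 1 alone called 623 and cohort 2 alone 63, against 2035. All genes called were 1333 with no filter, 1275 on session sums, 1036 without day 1 and 1189 without day 4. Without the 4 libraries richest in ribosomal-like reads 5 members were called, Fabp4 and Acly being lost (edgeR adjusted p = 0.0909 and 0.0577). Calls within supplement arms numbered 1, and 0 to 2 with a day left out. The Adipoq level called 28 members, 24 to 28 with a day left out and 18 in runners alone. Running with Adipoq held called 13, 10 to 15 with a day left out, 5 in cohort 1 alone and 1 in cohort 2 alone. The cause of these shifts was not tested, and each cohort holds fewer days. NR and PT called 0 members in 13 alternatives each. Of 1153 values of single genes under an alternative 0 reversed and 117 were no longer called. Most of these values were slopes on Adipoq, some for genes outside the members, so the pooled count does not describe the running calls. For running, Elovl5 and Me1 kept their calls in all 8 fits without a day, but Acly in 3 and Fabp4 in 2. With the replicate block in place of day, running called 7 members, the Adipoq level 27, running within arms 1, running with Adipoq held 14, and NR, PT, interactions, time and body weight change 0 each. Depth limits genes near 1 CPM, among them Cidea, Adrb3 and Elovl6.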
